A study of Homo sapiens with 12 samples.

Results

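The 4 HER receptor genes (EGFR, ERBB2, ERBB3 and ERBB4) and 6 genes of EGF-family ligands (AREG, BTC, EREG, HBEGF, NRG1 and TGFA) were followed through the breast cancer cell line SK-BR-3, its epirubicin-resistant derivative SK/EPI, and SK/EPI cells in which the transporter BCRP had been silenced. These 10 genes were taken by symbol, mapped to Ensembl identifiers of GENCODE 29, out of 58735 genes listed. Poly-A RNA was sequenced from 12 libraries, 3 in each of 4 groups. SK-BR-3 cells carried no treatment, and SK/EPI cells had been selected from them with rising concentrations of epirubicin, a DNA-damaging anthracycline. For SK/EPI-siNC and SK/EPI-siBCRP, the resistant cells received a control siRNA or an siRNA against ABCG2, the gene that encodes BCRP, for 48 h. All 4 groups therefore go back to one line, and SK/EPI is a single resistant derivative of it. The cells were prepared in triplicate, but the labels do not say whether the 3 libraries of a group came from separate cultures, so p-values measure the spread between these libraries only.

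HER receptors are tyrosine kinases of the cell membrane that signal as pairs. EGFR binds AREG, TGFA, HBEGF, BTC and EREG, ERBB3 and ERBB4 bind neuregulins, and ERBB2 has no known ligand but is the preferred partner of the others. Most of the ligands are made as membrane-bound precursors that metalloproteases cut free, and the active pairs feed the RAS-ERK and PI3K-AKT cascades. SK-BR-3 is known for ERBB2 gene amplification and is widely used as a model of HER2-positive breast cancer.

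The main features of the family were as follows. In SK/EPI cells ERBB2 mRNA was downregulated 4.95-fold relative to the parental line, while ERBB3 was 1.17-fold higher and EGFR was not called. HBEGF, TGFA, BTC and EREG were upregulated and AREG was downregulated. Of these ligands, TGFA and EREG entered the test only through their reads in SK/EPI cells, and AREG only through its reads in SK-BR-3 cells. After BCRP silencing in the resistant cells the changes were smaller, with HBEGF upregulated and ERBB2, ERBB3, TGFA and BTC downregulated.

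Promoter sequences of members were taken from RefSeq (GRCh38.p14), which held 8 of the 10 genes in 10 windows. The 250 bases before the start of HBEGF, AREG, EREG and EGFR are printed, as the member windows with at most 30 exonic bases in GENCODE 29. The windows of ERBB2, ERBB4, TGFA and BTC and another window of EGFR held more and are not printed. HBEGF was the most abundant of the 6 ligands in SK/EPI cells. AREG and EREG are neighbours on chromosome 4 that moved in opposite directions, and EGFR was not called in either comparison. Capitals mark short motifs that were searched on both strands. The TATA box was spelled TATAAA and the GC box, a site of SP1-like factors, was spelled GGGCGG. The AP-1 motif, bound by FOS and JUN proteins, was spelled TGANTCA. The CRE, or cAMP response element, was spelled TGACGTCA.
HBEGF, chr5:140346604-140346853, minus strand: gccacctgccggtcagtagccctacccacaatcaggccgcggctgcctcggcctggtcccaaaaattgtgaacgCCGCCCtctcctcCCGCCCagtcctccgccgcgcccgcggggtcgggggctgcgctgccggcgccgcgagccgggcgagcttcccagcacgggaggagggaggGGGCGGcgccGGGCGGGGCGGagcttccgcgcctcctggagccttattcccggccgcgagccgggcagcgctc
AREG, chr4:74444886-74445135, plus strand: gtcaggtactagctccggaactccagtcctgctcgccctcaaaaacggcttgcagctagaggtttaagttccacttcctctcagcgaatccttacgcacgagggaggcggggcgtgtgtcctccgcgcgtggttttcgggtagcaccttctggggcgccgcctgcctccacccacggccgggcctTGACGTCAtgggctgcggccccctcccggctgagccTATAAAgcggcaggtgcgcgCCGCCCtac
EREG, chr4:74364895-74365144, plus strand: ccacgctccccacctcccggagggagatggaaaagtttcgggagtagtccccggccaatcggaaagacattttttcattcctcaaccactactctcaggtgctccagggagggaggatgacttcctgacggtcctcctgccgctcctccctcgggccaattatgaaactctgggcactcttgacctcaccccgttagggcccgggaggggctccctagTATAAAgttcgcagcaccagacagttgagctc
EGFR, chr7:55018767-55019016, plus strand: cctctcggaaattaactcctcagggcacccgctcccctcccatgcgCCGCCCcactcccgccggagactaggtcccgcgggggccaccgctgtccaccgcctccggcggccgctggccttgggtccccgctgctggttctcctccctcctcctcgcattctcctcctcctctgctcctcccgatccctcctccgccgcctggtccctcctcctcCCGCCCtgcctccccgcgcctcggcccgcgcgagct
The HBEGF window held 5 matches to the GC box, 2 of which overlap by a single base, at 76.4% G and C. AREG held a TATA box 29 bases and a CRE 65 bases before the start, and EREG held a TATA box 32 bases before it. Among the 8 members that were matched, counted per gene over all its windows, the GC box occurred in 5, the TATA box in 3, the AP-1 motif in 2 and the CRE in 1. EGFR counts for the TATA box and the AP-1 motif only through its window that is not printed, which held 116 exonic bases. The other AP-1 match lay in the ERBB2 window, where all 250 bases are exonic. Counted per window instead, 42.6% of 35116 promoter windows of the same length held a GC box, 10.7% a TATA box, 6.57% the AP-1 motif and 1.65% the CRE. The counts per gene and the shares per window are not on the same scale. These matches are descriptions of the letters only.

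Each library held between 15830381 and 20545811 reads on genes. The deposited values were FPKM (a read count divided by exon length and by the size of the library), from which whole reads per gene were recovered. Of the total that the authors had divided by, these reads made up 99.8% to 101% in the SK-BR-3 and 92.8% to 95.4% in the SK/EPI libraries, and 89.5% to 90.7% in the siRNA-treated ones. Luminal epithelial markers were at a mean of at least 1 FPKM for 7 of 8 genes in every group, with CDH1 under 0.1 FPKM in every group. The sum of this list was 2958 to 3145 FPKM in SK-BR-3, 2220 to 2345 in SK/EPI, 2620 to 2675 in SK/EPI-siNC and 2214 to 2259 in SK/EPI-siBCRP cells. FOXA1, a luminal transcription factor, fell from 72.9 to 7.34 FPKM between the lines (log2 fold change -3.15) and KRT19 from 1651 to 509 FPKM (-1.69), while KRT18 (0.75) and CLDN4 (0.74) rose. Of the 7 tested, 4 rose, 2 fell and 1 was not called between the lines, and 1 rose, 5 fell and 1 was not called with the siRNA. Over all genes tested, 74.9% were called between the lines and 38.1% with the siRNA. Of the 6 stromal markers, VIM, COL1A2 and DCN were under 0.1 FPKM in every group. The list summed to 20.5 to 22.2 FPKM in SK-BR-3 libraries and to 10.2 to 10.5 FPKM in SK/EPI libraries. With siRNA the sum was 3.30 to 3.67 FPKM for SK/EPI-siNC and 2.62 to 2.72 FPKM for SK/EPI-siBCRP. Most of the sum in the untreated lines came from FN1, which fell from a mean of 19.6 to 9.19 FPKM (log2 fold change -1.01). Its means were 1.89 FPKM with control siRNA and 1.22 FPKM with siBCRP (-0.38). Between the lines COL1A1 fell from 1.57 to 0.794 FPKM (-0.52), whereas PDGFRB rose from 0.0106 to 0.300 FPKM (0.36), on 4 and 121 reads. Of the 5 leukocyte markers, PTPRC and NCAM1 were under 0.1 FPKM throughout, while the sum was 1.40 to 1.77 FPKM in the SK-BR-3 and 27.1 to 28.9 FPKM in the SK/EPI libraries, in which CD14 was 4.23 higher on the log2 scale. The sums were 7.27 to 8.27 FPKM in SK/EPI-siNC cells and 8.74 to 9.60 in SK/EPI-siBCRP cells. Of the 4 endothelial markers, VWF and KDR were under 0.1 FPKM throughout, and the sum was 6.70 to 6.99 FPKM in SK-BR-3, 27 to 28.1 in SK/EPI, 13.9 to 14.1 in SK/EPI-siNC and 22.3 to 22.5 in SK/EPI-siBCRP cells. CDH5, a cadherin, made up nearly the whole of that sum, at 6.77, 27.5, 13.8 and 22.2 FPKM in these groups, and PECAM1 was at a mean under 0.2 FPKM in each. The part of these differences in the results was not tested. The gene targeted by the siRNA, ABCG2, was at 32.5, 32.7 and 33.7 FPKM in the SK/EPI-siNC libraries and at 2.84, 3.47 and 2.91 FPKM in the SK/EPI-siBCRP libraries. The antisense strand of siBCRP #1, which the study names for the sequenced cells, is aUAACCAGcugauucaaaguauccc with its seed in capitals, and its full 25-base sense strand was found in 2 of the 4 ABCG2 transcripts of GENCODE 29.

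The first comparison asked which genes differ between the epirubicin-resistant line and its parental line. Of the 10 members, 9 had enough reads to be tested in it, and 5 were upregulated and 2 downregulated at an adjusted p under 0.05 (limma with Benjamini-Hochberg adjustment). For all 15823 genes tested, 74.9% were called, 37.9% up and 37% down, so a call by itself was common. With an absolute log2 change of at least 1 required as well, 4 members (ERBB2, HBEGF, TGFA and BTC) and 14.4% of all genes were called. ERBB4 and AREG passed the filter on low reads only through the SK-BR-3 libraries, and EREG and TGFA only through the SK/EPI libraries. NRG1 had no reads and was not tested. The log2 fold changes are differences of log2(FPKM + 1), which understate changes of low genes, and the folds given beside them were computed from the recovered reads with 95% intervals that cover counting error only. In bulk libraries such as these, fewer cells that carry an mRNA and less of it per cell cannot be told apart.

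**Figure D1:**
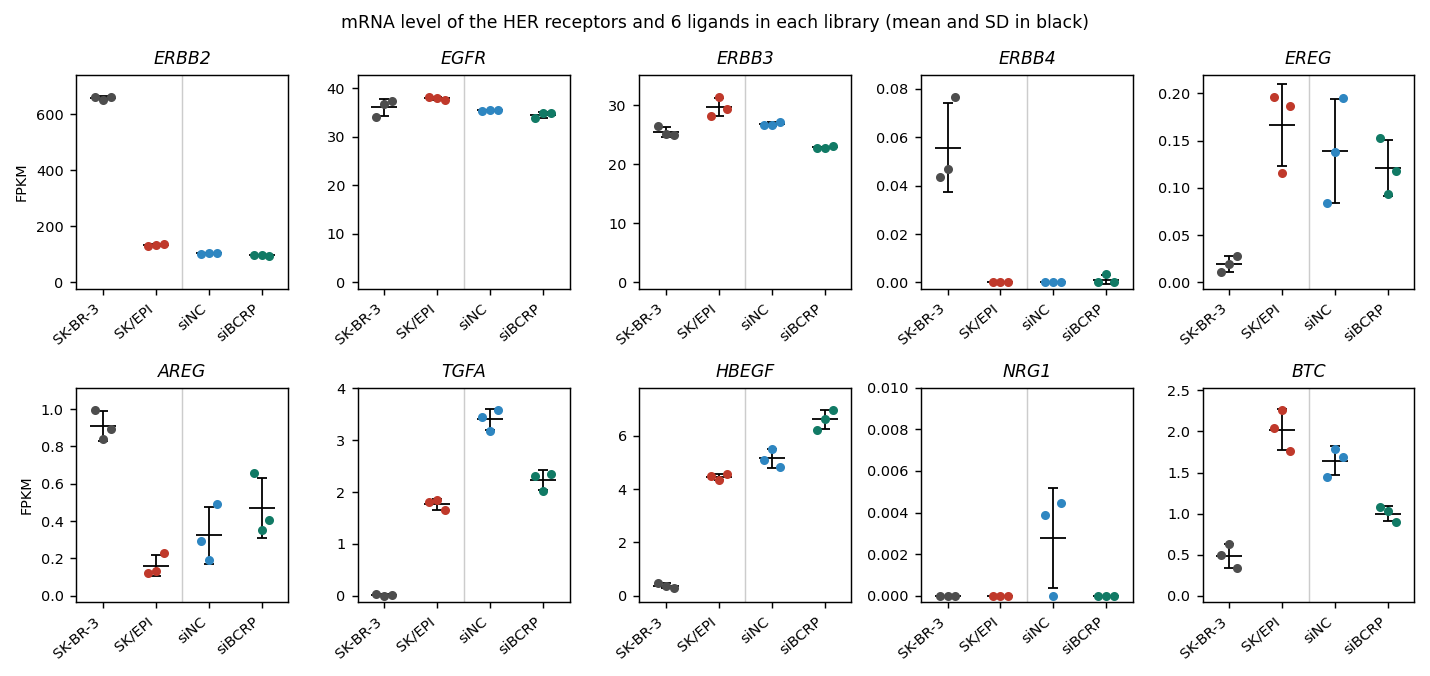
FPKM of the 10 members in each library (points), with the mean and SD of 3 libraries in black and every vertical axis drawn from 0 at its own scale. The grey line separates tables that were normalized separately. ERBB2 was highest in SK-BR-3 cells, and HBEGF, TGFA and BTC were near 0 or under 1 FPKM there.

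ERBB2 (ENSG00000141736, chr17:39687914-39730426, plus strand) was at 662, 652 and 662 FPKM in the SK-BR-3 libraries and at 128, 135 and 136 FPKM in the SK/EPI libraries. The groups were far apart, with every SK/EPI library below every SK-BR-3 library. The log2 fold change was -2.30 (SE 0.04, adjusted p = 2e-09, limma with Benjamini-Hochberg adjustment), or 4.95-fold lower (95% counting interval 4.92 to 4.99). It was larger in size than that of 97.0% of the genes tested. Among all genes of a library ordered by FPKM, ERBB2 took rank 35 to 38 in the SK-BR-3 libraries and rank 213 to 220 in the SK/EPI libraries. ERBB2 shares 5.53% of its exonic bases with MIEN1 on the opposite strand, and the library kit is not stated to keep strand.

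EGFR (ENSG00000146648, chr7:55019021-55211628, plus strand), the receptor of most of the ligands followed here, was at 34.1, 36.7 and 37.3 FPKM in SK-BR-3 and at 38.2, 38 and 37.6 FPKM in SK/EPI cells. The groups did not overlap, but only narrowly. Its log2 fold change was 0.07 (95% interval -0.02 to 0.16, adjusted p = 0.115, limma with Benjamini-Hochberg adjustment). With the mitochondrial chromosome left out of the scaling the value was 0.14 (adjusted p = 0.0248) and with limma's voom on the recovered reads it was 0.16 (adjusted p = 0.00024, with the median of all genes at 0.10 on that scale), so whether EGFR passed the threshold depended on the scaling.

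ERBB3 (ENSG00000065361, chr12:56076799-56103505, plus strand), whose kinase domain is nearly inactive and which signals through its partners, was at 26.4, 25.1 and 25.0 FPKM in SK-BR-3 and at 28.3, 31.5 and 29.5 FPKM in SK/EPI cells. All SK/EPI libraries were above all SK-BR-3 libraries. The log2 fold change of 0.21 (SE 0.05) passed the test with an adjusted p of 0.00305 (limma with Benjamini-Hochberg adjustment) and came to 1.17-fold. ERBB4 (ENSG00000178568, chr2:211375717-212538841, minus strand), a neuregulin receptor, was near the limit of detection, at 0.0436, 0.0468 and 0.0767 FPKM in SK-BR-3 cells, 39 reads in all, and at 0 reads in each SK/EPI library. Against a floor of 3 reads per library it was at least 4.365-fold lower in SK/EPI cells, and the test on log2(FPKM + 1) gave -0.08 with an adjusted p of 0.0513 (limma with Benjamini-Hochberg adjustment).

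The make-up of the receptor mRNA therefore differed between the lines. ERBB2 took 91.3% to 91.6% of the summed FPKM of the 4 receptors in SK-BR-3 libraries and 65.9% to 67.0% in SK/EPI libraries. The share of EGFR was 4.72% to 5.15% and 18.5% to 19.6%, and that of ERBB3 was 3.45% to 3.66% and 14.5% to 15.4%. The sum itself was 714 to 724 FPKM in SK-BR-3 and 195 to 204 FPKM in SK/EPI cells. The ratio of ERBB2 to EGFR, which does not depend on the scaling of a library, was 18.3 ± 0.957 (SD, n = 3) in SK-BR-3 and 3.51 ± 0.132 (SD, n = 3) in SK/EPI cells.

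**Figure D2:**
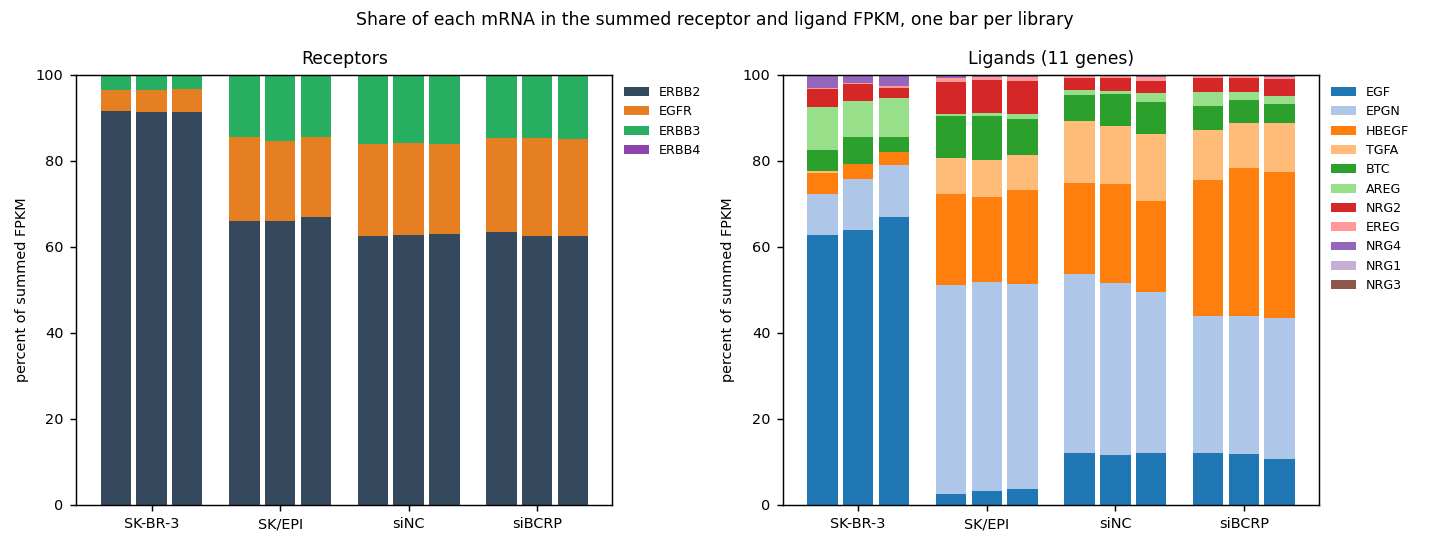
Share of each receptor in the summed FPKM of the 4 receptors (left) and of each ligand in the summed FPKM of 11 EGF-family ligands (right), in percent, with 1 bar per library. ERBB2 took over 91% of the receptor mRNA in SK-BR-3 and 62.4% to 67.0% in the 3 groups of SK/EPI cells, and the ligand with the largest share was EGF in SK-BR-3 and EPGN in SK/EPI and SK/EPI-siNC cells. The shares of HBEGF (31.6% to 34.5%) and EPGN (31.6% to 32.8%) overlapped in SK/EPI-siBCRP cells.

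Genes that lie beside ERBB2 at 17q12, a segment that is often amplified together with it, were mostly lower in SK/EPI cells too. Of 8 neighbours, 7 were downregulated, where 37% of all genes tested were. The other 1, IKZF3, which encodes a lymphoid transcription factor, was upregulated at a low level, with means of 0.111 FPKM in SK-BR-3 and 0.540 FPKM in SK/EPI cells. The median log2 fold change of the 8 neighbours was -1.18 against 0.01 for all genes tested. PNMT, counted among the 7, had 97 reads in SK-BR-3 and 11 in SK/EPI cells. It passed the filter on low reads only through the SK-BR-3 libraries, so a fall was the only call open to it. STARD3, a cholesterol-binding protein of endosomes whose gene starts 50.8 kb before that of ERBB2, was at 120, 116 and 111 FPKM in SK-BR-3 and at 27.8, 27.6 and 26.9 FPKM in SK/EPI cells (log2 fold change -2.04, adjusted p = 2.21e-09, limma with Benjamini-Hochberg adjustment). Its groups did not overlap, and of the 7 neighbours that fell, its 4.21-fold fall was the nearest in size to that of ERBB2.

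On the log2(FPKM + 1) scale the other 6 downregulated neighbours had smaller differences than STARD3. PGAP3, which remodels the lipid part of GPI anchors, had a log2 fold change of -1.56, MIEN1 of -1.50 and GRB7, an adaptor that binds activated ERBB2, of -1.27. TCAP, a sarcomere protein, had -1.08, PNMT, the enzyme that makes adrenaline, -1.0 and PPP1R1B, a phosphatase inhibitor, -0.79, while IKZF3 at 176 kb had 0.47. PNMT was at 1.27 FPKM in SK-BR-3 and 0.132 FPKM in SK/EPI cells, a level at which this scale understates a difference, and its fold from reads was 9.39-fold lower (95% counting interval 5.02 to 19.4). MIEN1 shares 24.9% of its exonic bases with ERBB2 on the opposite strand and PGAP3 shares 5.29%, so part of their reads could not be assigned with certainty. The ratio of ERBB2 to STARD3 within a library was 5.53 to 5.95 in SK-BR-3 and 4.63 to 5.06 in SK/EPI cells, and that of ERBB2 to GRB7 was 5.74 to 6.22 and 2.90 to 2.96. Both ratios were lower in every SK/EPI library than in every SK-BR-3 library.

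**Figure D3:**
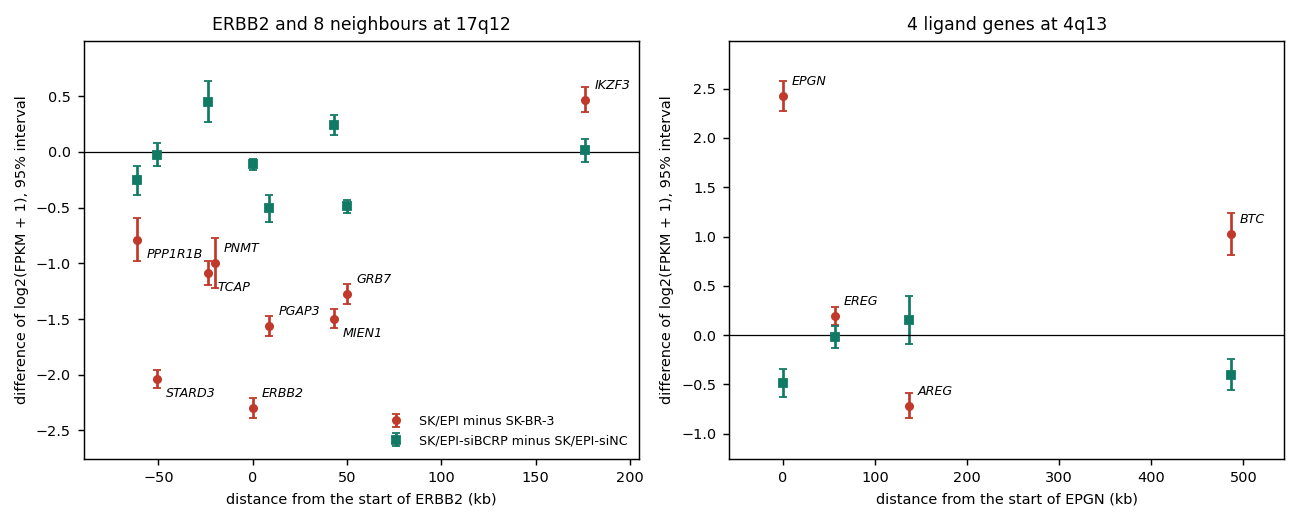
Difference of log2(FPKM + 1) with its 95% interval (limma) against the distance in kb from the start of ERBB2 (left) or of EPGN (right), for SK/EPI minus SK-BR-3 (red circles) and SK/EPI-siBCRP minus SK/EPI-siNC (green squares). In SK/EPI minus SK-BR-3, ERBB2 and STARD3 had the lowest values on this scale at 17q12, and AREG lay below 0 between the other ligand genes at 4q13. In SK/EPI-siBCRP minus SK/EPI-siNC, AREG was at 0.15 and was not called.

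Of the 6 ligands, HBEGF, TGFA, BTC and EREG were upregulated in SK/EPI cells, AREG was downregulated and NRG1 was not detected. HBEGF (ENSG00000113070, chr5:140332843-140346631, minus strand), a heparin-binding ligand of EGFR and ERBB4 that also serves as the receptor of diphtheria toxin, was at 0.48, 0.349 and 0.296 FPKM in SK-BR-3 and at 4.48, 4.33 and 4.55 FPKM in SK/EPI cells. The lowest SK/EPI library was far above the highest SK-BR-3 library. The log2 fold change was 1.99 (SE 0.07, adjusted p = 5.9e-08, limma with Benjamini-Hochberg adjustment), or 12.1-fold higher (95% counting interval 9.25 to 16).

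TGFA (ENSG00000163235, chr2:70447280-70554193, minus strand), an EGFR ligand, was at 0.0381, 0 and 0.0106 FPKM in SK-BR-3, 4 reads in all, and at 1.80, 1.85 and 1.65 FPKM in SK/EPI cells, 494 reads in all. It went from the limit of detection to a clear signal in all 3 SK/EPI libraries. Its log2 fold change was 1.44 (SE 0.05, adjusted p = 6.71e-08, limma with Benjamini-Hochberg adjustment), and the fold of 116 had a wide counting interval of 45.0 to 427.

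BTC (ENSG00000174808, chr4:74744759-74794686, minus strand), which binds EGFR and ERBB4, was at 0.492, 0.629 and 0.336 FPKM in SK-BR-3 and at 2.05, 2.26 and 1.76 FPKM in SK/EPI cells. The groups did not overlap, and the log2 fold change was 1.03 (SE 0.09, adjusted p = 1.94e-05, limma with Benjamini-Hochberg adjustment), or 4.19-fold higher (95% counting interval 3.23 to 5.49). EREG (ENSG00000124882, chr4:74365143-74388751, plus strand), a ligand of EGFR and ERBB4, was low in both lines, at 0.011, 0.0194 and 0.0276 FPKM in SK-BR-3 and at 0.196, 0.116 and 0.187 FPKM in SK/EPI cells. With 6 reads against 54, its 8.45-fold difference had a counting interval of 3.64 to 24.1, and the log2 fold change was 0.19 (adjusted p = 0.00219, limma with Benjamini-Hochberg adjustment).

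AREG (ENSG00000109321, chr4:74445134-74455009, plus strand), an EGFR ligand of the mammary epithelium, moved the other way. It was at 0.994, 0.84 and 0.892 FPKM in SK-BR-3 and at 0.124, 0.134 and 0.227 FPKM in SK/EPI cells. All SK/EPI libraries were lower, with a log2 fold change of -0.72 (SE 0.05, adjusted p = 7.32e-06, limma with Benjamini-Hochberg adjustment) and a fold of 5.61 (95% counting interval 3.20 to 10.5), on 79 reads in SK-BR-3 and 15 in SK/EPI cells. NRG1, a neuregulin that binds ERBB3 and ERBB4, had 0 reads in all 6 libraries, and 3 reads would have given at most 0.0167 FPKM in a library.

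The sum of the 6 ligands was 1.56 to 2.02 FPKM in SK-BR-3 and 8.37 to 8.69 FPKM in SK/EPI cells. In SK-BR-3 cells AREG was the highest of them, followed by BTC and HBEGF, whose libraries overlapped, and then by EREG and TGFA, which overlapped as well. In SK/EPI cells HBEGF was the highest, followed by BTC and TGFA with overlapping libraries, and by EREG and AREG, which also overlapped.

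The 5 remaining EGF-family ligands gave 2 higher, 2 lower and 1 undetected gene, where 74.9% of all genes tested were called. EPGN, which encodes the EGFR ligand epigen, was at 0.938, 1.19 and 1.19 FPKM in SK-BR-3 and at 10.4, 10.6 and 9.89 FPKM in SK/EPI cells (log2 fold change 2.42, adjusted p = 1.92e-08, limma with Benjamini-Hochberg adjustment). EGF, the ligand for which the family is named, was at 6.21, 6.41 and 6.59 FPKM and at 0.508, 0.677 and 0.741 FPKM in the same order (log2 fold change -2.18, adjusted p = 4.6e-08, limma with Benjamini-Hochberg adjustment). Neither gene overlapped between the lines, and on recovered reads EGF was 10-fold lower and EPGN 9.23-fold higher. EGF took 62.8% to 66.9% of the summed FPKM of all 11 ligands in SK-BR-3 and 2.39% to 3.58% in SK/EPI cells, whereas EPGN took 9.48% to 12% and 47.7% to 48.7%.

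NRG2, a neuregulin, rose from a mean of 0.351 to 1.63 FPKM (log2 fold change 0.96), and NRG4, a ligand of ERBB4, had a log2 fold change of -0.15 at 0.265 and 0.141 FPKM (adjusted p = 0.0174, limma with Benjamini-Hochberg adjustment). NRG4 shares 38.1% of its exonic bases with FBXO22 on the opposite strand, which makes its value uncertain. NRG3 had no reads. EPGN, EREG, AREG and BTC lie in one stretch of chromosome 4, with starts 56.7 kb, 137 kb and 486 kb from that of EPGN, and AREG was the member of this stretch that fell while the other 3 rose. The EPGN promoter window held a TATA box 29 bases before the start, the same distance as in AREG.

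**Figure D4:**
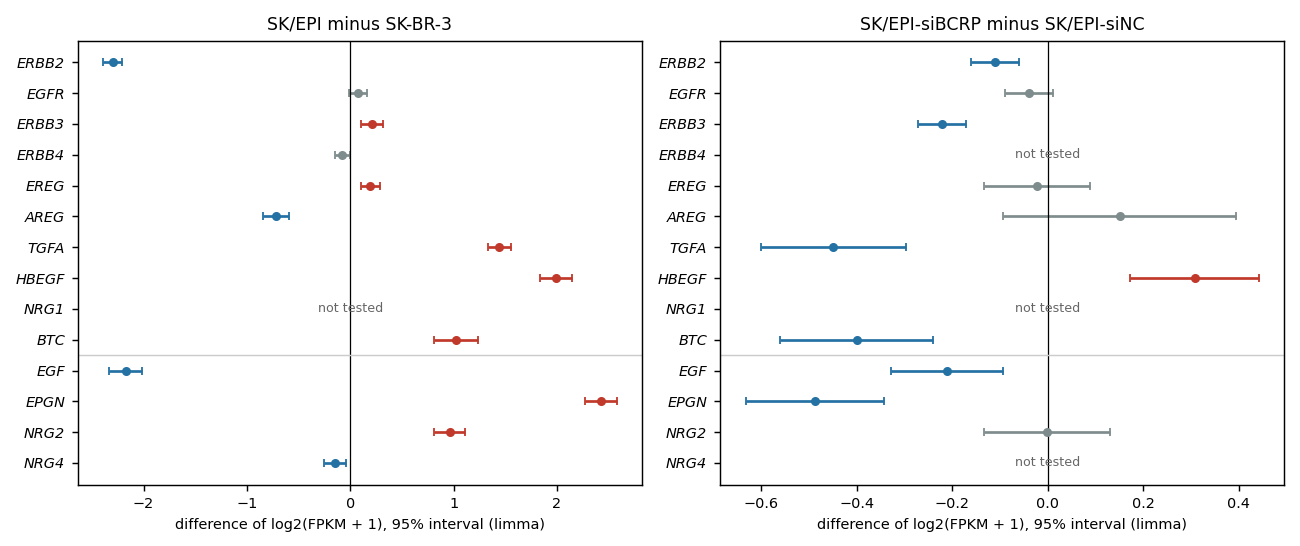
Difference of log2(FPKM + 1) with its 95% interval (limma) for the 10 members and, below the line, other EGF-family ligands, in SK/EPI minus SK-BR-3 (left) and SK/EPI-siBCRP minus SK/EPI-siNC (right). Red and blue mark genes higher and lower at an adjusted p under 0.05 and grey those not called. The horizontal scales differ, from -2.30 for ERBB2 on the left to -0.11 for the same gene on the right.

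Genes that process the ligands moved in both directions in SK/EPI cells. Of 11 sheddases and processing genes, 4 rose, 6 fell and 1 was not called (median log2 fold change -0.17). Of all genes tested in this comparison 74.9% were called, against which the counts of this list and of the lists that follow should be read. ADAM12, a metalloprotease that cuts HBEGF, rose from a mean of 0.00426 to 2.37 FPKM (1.75 on the log2(FPKM + 1) scale). Its SK-BR-3 mean rested on 2 reads in all, against 1319 in SK/EPI cells, so it entered the test only through SK/EPI cells. RHBDF2, which brings the sheddase ADAM17 to the cell surface, had a log2 fold change of 0.55. ADAM19, which can shed neuregulins, fell from 4.04 to 0.106 FPKM (-2.19), and ADAM15 fell from 66.7 to 19.6 FPKM (-1.71).

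Partners and chaperones of the receptors moved in both directions as well. Of 9 genes, 6 rose, 2 fell and 1 was not called, with a median of 0.60. CD44, a hyaluronan receptor that can present HBEGF, rose from 0.386 to 7.53 FPKM (2.62), and MUC4, a mucin that binds ERBB2, rose from 0.031 to 2.98 FPKM (1.95). The tetraspanins CD151 and CD82 fell, with log2 fold changes of -0.90 and -0.53.

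Inhibitors of the receptors and genes of receptor turnover gave 9 higher, 1 lower and 3 not called of 13, with a median of 0.15. Of all genes tested 37.9% rose and 37% fell. SOCS5, which limits EGFR levels, had 1.17, the ubiquitin ligase CBLC had 0.74, and its relative CBL, which marks activated EGFR for degradation, had -0.39. Among 17 adaptors and PI3K genes, 15 were tested, of which 8 rose and 6 fell (median 0.30). GAB2, a docking protein that couples receptors to PI3K, rose from 0.706 to 27.1 FPKM (4.04), and its relative GAB1 had 1.43. AKT1, a kinase downstream of PI3K, had -1.08, and PIK3R1, a regulatory subunit of PI3K, had -0.62.

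In the RAS-RAF-MEK-ERK cascade 3 genes rose, 5 fell and 2 were not called of 10 (median -0.23). Both MEK genes were among those that rose, MAP2K1 by 0.94 and MAP2K2 by 0.83, and HRAS (-1.12) and NRAS (-0.94) were among those that fell. Of 10 genes known as transcriptional outputs of ERK, 9 were tested, with 4 higher and 5 lower (median -0.37). PHLDA1 (1.87) and the receptor kinase EPHA2 (0.80) rose, whereas DUSP4 (-1.88), a phosphatase of ERK, and SPRY4 (-1.45), an inhibitor of receptor signalling, fell.

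**Figure D5:**
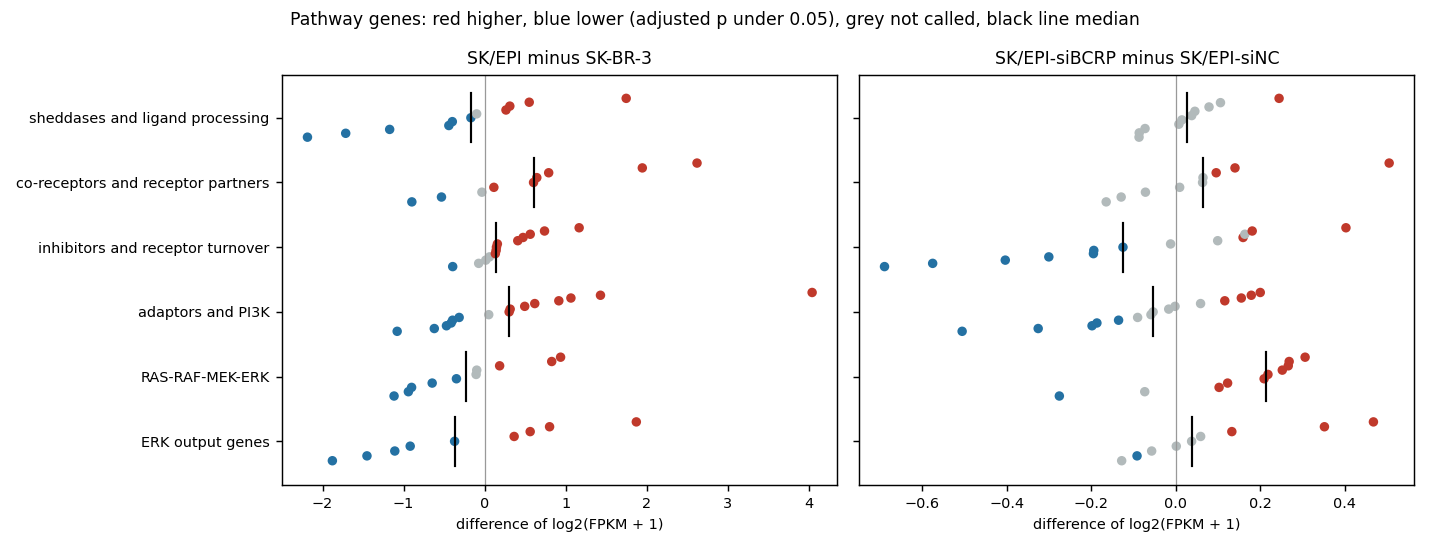
Difference of log2(FPKM + 1) of every tested gene in 6 lists of the HER pathway, in SK/EPI minus SK-BR-3 (left) and SK/EPI-siBCRP minus SK/EPI-siNC (right), with horizontal scales that differ. Red points rose, blue points fell and grey points were not called at an adjusted p under 0.05, and the black line is the median of a list. GAB2 at 4.04 was farthest to the right in SK/EPI cells, and CBL at -0.69 farthest to the left after BCRP silencing.

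The second comparison asked what BCRP silencing changed within SK/EPI cells. Both groups stand in a table of their own, and whether the tables were normalized together is not known. Between the tables, siRNA treatment and table cannot be told apart, so levels can be set beside those of the first table only with caution. Of the 10 members, 8 were tested, and 1 was upregulated and 4 were downregulated at an adjusted p under 0.05 (limma with Benjamini-Hochberg adjustment). Of all 16298 genes tested 38.1% were called, 19.4% up and 18.7% down. No member reached an absolute log2 fold change of 1, and neither did most of the called genes, since 0.411% of all genes did so.

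ERBB2 was at 103, 104 and 107 FPKM in the SK/EPI-siNC libraries and at 98.1, 96.2 and 96.1 FPKM in the SK/EPI-siBCRP libraries. The groups did not overlap, and the log2 fold change was small, at -0.11 (SE 0.02, adjusted p = 0.00591, limma with Benjamini-Hochberg adjustment), or 1.08-fold lower. ERBB3 was at 26.7, 26.6 and 27.2 FPKM with control siRNA and at 22.8, 22.8 and 23.0 FPKM with siBCRP, lower in all 3 libraries (log2 fold change -0.22, SE 0.02, adjusted p = 0.000231, limma with Benjamini-Hochberg adjustment).

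EGFR was at 35.3, 35.4 and 35.6 FPKM with control siRNA and at 33.8, 34.8 and 34.8 FPKM with siBCRP. The difference of -0.04 on the log2 scale had a 95% interval of -0.09 to 0.01 and an adjusted p of 0.198 (limma with Benjamini-Hochberg adjustment), and it was called at -0.07 (adjusted p = 0.036) when values were scaled to the sum over genes. ERBB4 had 0 reads with control siRNA and 1 read with siBCRP, and was not tested. The share of ERBB2 in the receptor mRNA was 62.4% to 62.9% with control siRNA and 62.4% to 63.4% with siBCRP, and these ranges overlapped.

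HBEGF was at 5.10, 5.52 and 4.83 FPKM with control siRNA and at 6.23, 6.64 and 6.96 FPKM with siBCRP. Every siBCRP library was above every control library, with a log2 fold change of 0.31 (SE 0.06, adjusted p = 0.00493, limma with Benjamini-Hochberg adjustment), or 1.29-fold (95% counting interval 1.18 to 1.40). TGFA was at 3.45, 3.19 and 3.58 FPKM with control siRNA and at 2.32, 2.01 and 2.36 FPKM with siBCRP. It was lower in all 3 siBCRP libraries, with a log2 fold change of -0.45 (SE 0.06, adjusted p = 0.00157, limma with Benjamini-Hochberg adjustment), or 1.54-fold (95% counting interval 1.39 to 1.70). BTC was at 1.45, 1.79 and 1.69 FPKM and at 1.08, 1.03 and 0.90 FPKM in the same order.

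BTC was thus lower without overlap too, with a log2 fold change of -0.40 (SE 0.07, adjusted p = 0.0034, limma with Benjamini-Hochberg adjustment), or 1.63-fold (95% counting interval 1.34 to 1.98). HBEGF, TGFA and BTC were all higher in SK/EPI than in SK-BR-3 cells, but HBEGF moved apart from TGFA and BTC after BCRP silencing. The ratio of HBEGF to BTC within a library was 2.86 to 3.52 with control siRNA and 5.79 to 7.73 with siBCRP.

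EREG and AREG stayed low. EREG was at 0.0843, 0.138 and 0.195 FPKM with control siRNA and at 0.153, 0.0933 and 0.118 FPKM with siBCRP, and the groups overlapped (log2 fold change -0.02, 95% interval -0.13 to 0.09, adjusted p = 0.75, limma with Benjamini-Hochberg adjustment). AREG was at 0.293, 0.191 and 0.492 FPKM and at 0.655, 0.351 and 0.408 FPKM, again overlapping (log2 fold change 0.15, 95% interval -0.09 to 0.40, adjusted p = 0.294, limma with Benjamini-Hochberg adjustment). NRG1 had 2 reads in all with control siRNA and none with siBCRP. The sum of the 6 ligands was 10.4 to 10.8 FPKM with control siRNA and 10.1 to 10.7 FPKM with siBCRP, and these ranges overlapped. HBEGF led the 6 ligands in both groups, followed by TGFA and BTC in that order without overlap between them.

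Among the other ligands EPGN was at 10.1, 9.5 and 8.54 FPKM with control siRNA and at 6.23, 6.15 and 6.76 FPKM with siBCRP, lower in all 3 libraries (log2 fold change -0.49, adjusted p = 0.000835, limma with Benjamini-Hochberg adjustment). EGF had means of 2.81 and 2.29 FPKM (log2 fold change -0.21, adjusted p = 0.0141, limma with Benjamini-Hochberg adjustment). NRG2 was at 0.671 FPKM in both groups and was not called, and NRG3 and NRG4 were not tested. EGF stood at 0.642 FPKM in the untreated SK/EPI cells of the other table.

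At 17q12, the neighbours of ERBB2 did not follow a common direction after BCRP silencing, with 2 higher, 3 lower, 2 not called and 1 not tested (median log2 fold change -0.02 over the list). Of all genes tested 38.1% were called. PGAP3 (-0.51), GRB7 (-0.49) and PPP1R1B (-0.25) fell, and TCAP (0.45) and MIEN1 (0.24) rose, while STARD3 (-0.02) and IKZF3 (0.01) were not called and PNMT was not tested. GRB7 was at 62.1 to 62.9 FPKM with control siRNA and at 43.6 to 45.6 FPKM with siBCRP.

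Of 11 sheddases and processing genes, 1 was called after BCRP silencing, ADAM9, which was higher (0.24), and 9 were not called. The share over all genes tested was 38.1% called, with 19.4% up and 18.7% down. Among the 9 partners, 3 rose and none fell, with the tetraspanins CD9 (0.51) and CD82 (0.14) among those that rose. Inhibitors and turnover genes had 3 higher, 7 lower and 3 not called of 13 (median -0.12). CBL fell from a mean of 8.48 to 4.89 FPKM (-0.69) and ERRFI1, a feedback inhibitor that binds the kinase domains of EGFR and ERBB2, fell from 18.5 to 12.1 FPKM (-0.57), whereas the ubiquitin ligase NEDD4 (0.40) and SOCS4 (0.18) rose.

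Adaptors and PI3K genes had 4 higher, 5 lower and 6 not called of 15 tested (median -0.05), among them GAB1 (-0.51), PIK3R1 (-0.33), SHC1 (0.20) and GRB2 (0.18). In the RAS-RAF-MEK-ERK cascade 8 of 10 genes rose, 1 fell and 1 was not called, with a median of 0.21 against -0.0036 for all genes tested, of which 19.4% rose. MAP2K1 (0.31) and MAP2K2 (0.27), which encode the MEK kinases, had the largest rises. Of the 9 ERK output genes tested, 3 rose, 1 fell and 5 were not called, with ETV4 (0.47), DUSP4 (0.35) and EPHA2 (0.13) higher and CCND1, which encodes cyclin D1, lower (-0.09).

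To find genes whose pattern over the 12 libraries was most like that of a member, log2(FPKM + 1) was centred within each table and the root mean square difference was taken over 15152 genes. The genes nearest to ERBB2 were SCNN1A (0.05), TTC39A (0.06) and BST2 (0.06), none of which lies on chromosome 17. Their log2 fold changes in SK/EPI cells were -2.23, -2.22 and -2.25. The centring removes differences in level between the untreated and the siRNA-treated libraries, which stand in separate tables. BST2 was at 75 FPKM in SK-BR-3, 15.0 in SK/EPI, 79.5 in SK/EPI-siNC and 74.55 in SK/EPI-siBCRP cells. ERBB2 was at 659, 133, 105 and 96.8 FPKM in the same order. Nearest to EGFR were SIL1, MAP4 and OSGIN2, at 0.02 each. Nearest to HBEGF were ACOXL (0.06), MMP16 (0.07) and FIBIN (0.07), with log2 fold changes of 1.99, 1.96 and 2.07 in SK/EPI cells and of 0.36, 0.27 and 0.27 after BCRP silencing. These distances describe likeness over libraries that share 4 groups and carry no test.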

How the data were processed

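RNA-seq of 12 libraries was analysed (SK-BR-3, SK/EPI, SK/EPI-siNC and SK/EPI-siBCRP, 3 each), grouped by the sample titles. The authors deposited FPKM in 2 tables with no unit label, and these were read as FPKM because value times merged exon length (GENCODE 29, GRCh38) came out as whole multiples of one step per library (tolerance 0.02, 100% of 304314 values above 0) while the sums per library ranged from 253312 to 288028. The submitters' processing notes name HISAT2 2.0.5, featureCounts 1.5.0-p3 and DESeq2 1.16.1 and the build hg38, without their roles. The strand setting is not given in the sources used here. Replicates differed by more than counting noise (chi-square per degree of freedom 1.64 to 4.27).

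Genes reaching 10 reads (at median library size) in 3 or more libraries, with 15 or more reads in total, were tested within each table on log2(FPKM + 1) with limma 3.58.1 (lmFit, eBayes with a trend, group alone) in R 4.3.3, with Benjamini-Hochberg adjustment over all genes tested and a threshold of 0.05. Folds used recovered reads over the authors' totals with 95% counting intervals, and bounds used a floor of 3 reads per library. Other steps were run in Python 3.11.15 with pandas 2.3.3, and the fits were tested on simulated data. All 10 members, all other EGF-family ligands and all neighbours of ERBB2 were named, and so were the 3 genes most like each of ERBB2, EGFR and HBEGF. From each other pathway list, up to 2 of the largest called rises and falls with a group mean of at least 1 FPKM were named. Cell type markers were not chosen by this rule. EPHA2 after BCRP silencing was named outside this rule, after its value was seen, to complete a count. 1 gene that the rule takes in is not reported here. The members and lists were chosen with earlier results of these data known. Alternatives were a pseudocount of 0.1, no filter, at least 10 reads in every library, 3 other scalings, the replicate number as a block, each library left out, voom on recovered reads, and a log2 fold change of at least 1. Promoters of ERBB3 and NRG1 were not used here, and windows with more than 30 exonic bases in GENCODE 29 are not printed.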

Additional observations from a re-analysis of the deposited data

How the results depend on the processing

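Of 233 values of members under the alternatives, 226 kept their direction and their side of the threshold, 6 were called only under the alternative and 1 changed sign. With an absolute log2 change of at least 1 also required, 2278 genes (1245 up and 1033 down) and 4 members were called in SK/EPI against SK-BR-3 cells, and 67 genes (11 up and 56 down) and 0 members in SK/EPI-siBCRP against SK/EPI-siNC cells. With at least 10 reads in every library 4 members were called in the first comparison, because 5 members were tested. Leaving out each library in turn gave 11237 to 11547 and 5103 to 5403 genes in the first and second comparison, and 7 and 5 members each time. The log2 fold change of EREG after BCRP silencing ranged from -0.0568 to 0.0132 with each library left out, the sign changing without SK/EPI-siNC replicate 3, and was never called.

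ERBB4 in the first comparison was called with a pseudocount of 0.1 (adjusted p = 0.00286), without a filter (adjusted p = 0.0242) and with voom (adjusted p = 7.21e-08). With the replicate number as a block 11656 and 5640 genes and 7 and 5 members were called. Whether same-numbered libraries were prepared together is not known. Their deviations correlated at -0.0485 to -0.00201 in the first comparison and at 0.00923 to 0.0551 in the second. Those of differently numbered libraries correlated at -0.0109 to 0.0536 and at -0.05 to 0.0266, and these correlations cannot decide the question. Counting noise limits EREG, AREG, TGFA in SK-BR-3 cells, ERBB4 and NRG1, which rest on few reads.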
